A study of Rattus norvegicus with 18 samples.

Results

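Integrins are the receptors that hold a cell to the matrix around it, and laminins are matrix proteins that several integrins bind. Genes whose symbols name an integrin α or β subunit or a laminin α, β or γ chain were taken from a gene table of neonatal rat ventricular myocytes (NRVM), if their mean over the 6 groups of the study was at least 0.5 FPKM. FPKM is a fragment count scaled to transcript length and to the number of fragments in the library. Of the 17312 genes in the table, 27 such symbols were analysed and 21 passed the minimum, 16 integrin subunits and 5 laminin chains. The 6 that did not pass were Itga10, Itgal, Itgam, Itgb7, Lama1 and Lamc3. Closest to the minimum were Itgam below it, with a mean of 0.490 FPKM, and Itgad above it, with a mean of 0.826 FPKM. All 21 members were above 0.5 FPKM in every group. Subunits and chains outside these 27 symbols were not analysed here.

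An integrin is a pair of 1 α and 1 β subunit, and the α subunit largely sets which matrix protein is bound. Pairs containing β1 are the main matrix receptors of heart muscle cells, where they sit at costameres, the points at which the contractile apparatus is anchored to the membrane. A laminin is a trimer of 1 α, 1 β and 1 γ chain and is a main component of the basement membrane that wraps each muscle cell. Talin, vinculin, kinases and LIM-domain adaptors link the inner ends of integrins to the cytoskeleton at focal adhesions.

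The cells came from hearts of 2-day-old Sprague-Dawley pups and were kept in serum-free medium before treatment. They were given SR9009, a synthetic compound that activates REV-ERB nuclear receptors, or vehicle for 24 h. Phenylephrine (PE), an α1-adrenergic agonist that makes cultured myocytes grow, was then given for 0, 4 or 48 h. The groups were thus SR9009 at 0 h, SR9009 at 4 h of PE, SR9009 at 48 h of PE, vehicle at 0 h, vehicle at 4 h of PE and vehicle at 48 h of PE, with 3 libraries in each and 18 in all. No group cultured for 4 or 48 h without PE was analysed here, so PE and time in culture cannot be told apart, and every comparison of a PE group with 0 h within a pretreatment uses the same 0 h group. The design asks how SR9009 alters the transcriptome at rest and after PE.

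The table holds 1 FPKM per gene and group with a lower and an upper bound, all set by the authors, and no value per library. No SD and no test over samples could therefore be had. For the 15 members with a mean of at least 5 FPKM the bounds lay 13.1 to 25.5% from the value, and for the other 6 members 13.8 to 43.3%. Differences are given as the difference of log2(FPKM + 1), which understates the change of low genes. The range after each difference sets the upper bound of one group against the lower bound of the other. A gene met the size rule where the difference was at least 1 in size, that is about 2-fold, and its range did not include 0. The size rule is a description and not a test, so "higher" and "lower" below are statements about these group values.

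Cardiomyocyte markers were the most abundant of the 9 marker lists examined: 8 of them summed to between 10880 and 23260 FPKM in a group. Fibroblast markers summed to 843 to 1813 FPKM with Col1a2 listed at 0 in every group, and smooth muscle and pericyte markers to 896 to 2057 FPKM. Endothelial markers summed to 13.0 to 22.5 FPKM, macrophage markers to 7.53 to 23.9 FPKM, other leukocyte markers to 7.67 to 13.5 FPKM and platelet markers to 9.54 to 32.7 FPKM with Ppbp at 0. Epicardial markers summed to 5.66 to 11.7 FPKM and Schwann cell markers to 3.02 to 5.89 FPKM. In such bulk RNA, fewer cells of a type and less RNA per cell cannot be told apart. Summed FPKM over all genes was lowest with vehicle at 0 h (609018) and highest with vehicle at 48 h of PE (710198).

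In vehicle cells, 5 members were at least about 2-fold higher at 48 h of PE than at 0 h and none was lower, beside 4.66% of all tested genes higher and 3.81% lower. They were the laminin chain genes Lamb3 and Lamc1 and the integrin α genes Itga5, Itga6 and Itga1. With SR9009, 2 members were higher at 48 h than at 0 h (Lamb3 and Itga7) and none lower, beside 1.18% of all tested genes higher and 1.09% lower. Meeting the rule in a single arm is not by itself a difference between the arms. The SR9009 difference minus the vehicle difference had a range that included 0 for Lamc1 (-0.49), Itga5 (-0.66), Itga1 (-0.88) and Itga7 (0.27). For Itga6 (-1.31) the range excluded 0. With every group's FPKM scaled to the same sum, the 48 h counts became 1 higher with SR9009 (Lamb3), and 2 higher (Lamb3 and Itga5) and 1 lower (Itga8) with vehicle. The shares of all genes were then 0.998% higher and 1.48% lower with SR9009, and 3.14% higher and 6.17% lower with vehicle. At 48 h of PE, SR9009 cells held 38.2% of the Itga6 level of vehicle cells. Itgb6 and Lamb2 had the opposite arrangement, lying above vehicle with SR9009 at 48 h and below it at 0 and 4 h.

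**Figure D1:**
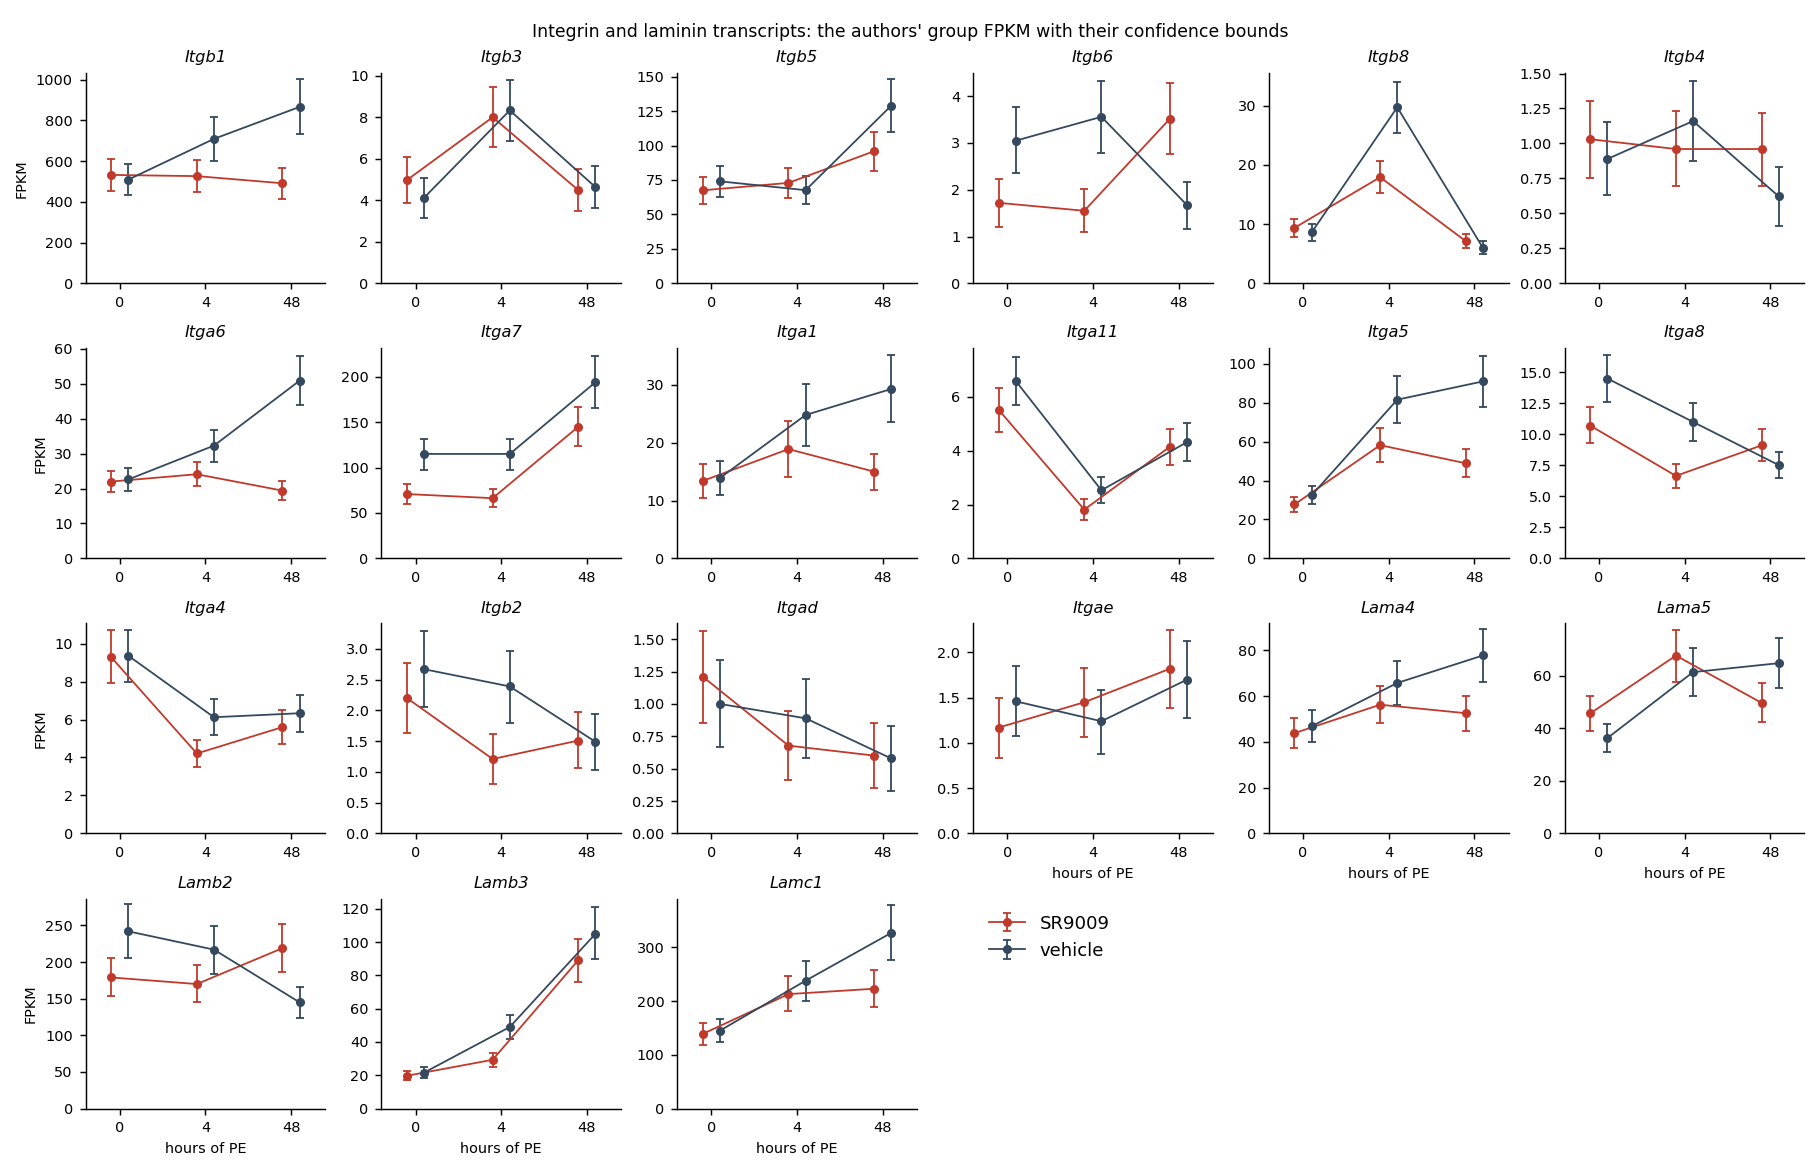
FPKM of the 21 members by hours of PE, each panel with its own axis; red points are SR9009 and dark points vehicle, and bars run between the authors' lower and upper bounds. Itgb1 lies between 491 and 532 FPKM at all times with SR9009 and reaches 866 FPKM with vehicle at 48 h.

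Among the β subunits, Itgb1 was by far the most abundant member. It encodes β1, the partner of most matrix-binding α subunits, and ranked 185 of 17312 genes by mean FPKM (chr19:61677542-61725537, rat build rn6, as are all gene positions here). Itgb1 had 532, 526 and 491 FPKM with SR9009 at 0, 4 and 48 h of PE, against 509, 709 and 866 FPKM with vehicle. The SR9009 values thus stayed within a narrow band, while the vehicle values were ordered by time. The vehicle bounds at 4 h (601 to 816 FPKM) and 48 h (731 to 1002 FPKM) overlapped. With vehicle the 48 h difference from 0 h was 0.77, and 0.54 with equal sums. The PE difference at 48 h with SR9009 minus that with vehicle was -0.88 (range -1.75 to -0.01), short of the size rule. The bounds of the pretreatments overlapped at 0 and 4 h and did not at 48 h, where SR9009 was at 56.6% of vehicle and the difference was -0.82 (range -1.27 to -0.37), short of the size rule. Itgb1 made up between 81.2 and 86.3% of the summed FPKM of the β subunits.

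Itgb5 encodes β5, which pairs with an αv subunit in a vitronectin receptor. Itgb5 had 67.5, 72.9 and 95.9 FPKM with SR9009 at 0, 4 and 48 h, against 74.0, 67.6 and 129 FPKM with vehicle. Both arms were highest at 48 h, with differences from 0 h of 0.50 with SR9009 and 0.80 with vehicle, neither of which met the size rule. Itgb3, whose product β3 forms receptors for RGD-containing ligands such as vitronectin and fibrinogen, had 4.98, 8.01 and 4.49 FPKM with SR9009, against 4.13, 8.34 and 4.64 FPKM with vehicle. Its level was thus highest at 4 h in both arms, and the bounds of SR9009 and vehicle overlapped at each time.

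Itgb8 had the same single peak on a larger scale. It encodes β8, a subunit known for activating latent TGF-β on the cell surface (chr6:147094295-147172813). Itgb8 had 9.35, 17.9 and 7.11 FPKM with SR9009 at 0, 4 and 48 h, against 8.57, 29.7 and 5.99 FPKM with vehicle. At 4 h the difference from 0 h was 0.87 (range 0.46 to 1.29) with SR9009 and 1.68 (range 1.27 to 2.09) with vehicle, and only the vehicle value met the size rule. SR9009 was at 60.4% of vehicle at 4 h with bounds apart, and the bounds overlapped at 0 and 48 h. Subtracting the vehicle difference at 4 h from the SR9009 difference gave -0.81 (range -1.63 to 0.01), which did not meet the rule.

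Itgb6 encodes β6, which is best known in epithelium and also activates latent TGF-β (chr3:46654366-46726946). It was low in all groups, with 1.72, 1.55 and 3.52 FPKM with SR9009, against 3.05, 3.56 and 1.67 FPKM with vehicle. The bounds of the pretreatments did not overlap at any of the 3 times. SR9009 was at 56.5% of vehicle at 0 h and at 43.6% at 4 h, and at 210% at 48 h. None of these differences met the size rule on the log2(FPKM + 1) scale, and with a pseudocount of 0.1 those at 4 h (-1.15) and 48 h (1.03) did. The PE difference at 48 h was 0.73 with SR9009 and -0.60 with vehicle, and the SR9009 difference exceeded the vehicle difference by 1.33 (range 0.29 to 2.39), which met the rule. Itgb4, whose product β4 pairs with α6 in epithelial hemidesmosomes, ranged from 0.960 to 1.03 FPKM with SR9009 and from 0.621 to 1.16 FPKM with vehicle and met the rule in no comparison.

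Of the α subunits that bind laminin with β1, Itga7 was the most abundant and Itga6 the one that differed more between the pretreatments at 48 h; at 0 and 4 h Itga7 differed more. Itga7 encodes α7, the main laminin-binding α subunit of adult muscle (chr7:3355259-3386522). It had 70.8, 66.3 and 145 FPKM with SR9009 at 0, 4 and 48 h, against 115, 115 and 194 FPKM with vehicle. SR9009 was below vehicle with bounds apart at 0 h (61.7% of vehicle) and 4 h (57.8%), and the bounds overlapped at 48 h (74.8%). The 48 h level was higher than the 0 h level by 1.03 (range 0.60 to 1.46) with SR9009 and by 0.76 (range 0.33 to 1.18) with vehicle, so that only SR9009 met the size rule. The SR9009 difference exceeded the vehicle difference by 0.27, with a range that included 0 (-0.58 to 1.13). The SR9009 call lay close to the limit and was 0.93 when every group's FPKM was scaled to the same sum. Mettl7b overlaps Itga7 on the genome and averaged 0.591 FPKM.

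Itga6 encodes α6, which pairs with β1 or β4 to bind laminin (chr3:58443101-58515124). Itga6 had 22.0, 24.1 and 19.4 FPKM with SR9009 at 0, 4 and 48 h, against 22.6, 32.3 and 50.9 FPKM with vehicle. The arms began at the same level within their bounds, and the SR9009 values lay below the vehicle values with bounds apart at 4 and 48 h. At 4 h they were barely apart: the upper SR9009 and the lower vehicle bound both round to 27.6 FPKM. At 48 h the SR9009 difference from vehicle was -1.35 (range -1.74 to -0.95), which met the size rule. The 48 h difference from 0 h was -0.17 (range -0.55 to 0.21) with SR9009 and 1.14 (range 0.74 to 1.53) with vehicle, and the SR9009 value minus the vehicle value was -1.31 (range -2.08 to -0.53).

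Among the collagen-binding α subunits, Itga1 and Itga11 differed in the direction of the PE difference. Itga1 encodes α1, a receptor for basement membrane collagen (chr2:47127404-47281387). It had 13.4, 18.9 and 15.0 FPKM with SR9009, against 13.9, 24.8 and 29.3 FPKM with vehicle. At 48 h vehicle was higher than at 0 h by 1.03 (range 0.46 to 1.60), and SR9009 differed from 0 h by 0.15. SR9009 was at 51.0% of vehicle at 48 h with bounds apart, a difference of -0.93. Pelo, which overlaps Itga1 on the genome, had 68.1, 131 and 50.5 FPKM with SR9009, against 47.2, 103 and 73.7 FPKM with vehicle. Whether the authors' counting used strand is not given in the sources used here, so part of the Itga1 signal may be shared with Pelo, and its values are uncertain to that extent.

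Itga11 encodes α11, a receptor for fibrillar collagen that is typical of fibroblasts (chr8:67567199-67683973). Itga11 had 5.52, 1.81 and 4.15 FPKM with SR9009 at 0, 4 and 48 h, against 6.59, 2.53 and 4.32 FPKM with vehicle. It was lowest at 4 h in both arms, with a difference from 0 h of -1.21 (range -1.60 to -0.83) with SR9009 and -1.10 (range -1.48 to -0.73) with vehicle, and both met the size rule. With quantile normalization they came to -0.97 with SR9009 and -0.94 with vehicle, just short of it. The bounds of SR9009 and vehicle overlapped at all times. The summed fibroblast markers were also lower at 4 h, at 843 FPKM at 4 h and 1492 FPKM at 0 h with SR9009, and at 1101 FPKM at 4 h and 1813 FPKM at 0 h with vehicle. Of the 9 fibroblast markers measured, 3 were lower by the size rule at 4 h with SR9009 and none with vehicle. The part of these markers in the Itga11 difference was not tested.

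Of the α subunits that bind fibronectin or related ligands, Itga5 was higher after PE while Itga4 and Itga8 had lower values. Itga5 encodes α5, the classical fibronectin receptor with β1 (chr7:144970444-144993652). It had 27.7, 58.2 and 48.9 FPKM with SR9009 at 0, 4 and 48 h, against 32.4, 81.6 and 91.0 FPKM with vehicle. At 4 h it was higher than at 0 h by 1.05 (range 0.63 to 1.46) with SR9009 and by 1.31 (range 0.89 to 1.72) with vehicle, and at 48 h by 0.80 with SR9009 and 1.46 (range 1.05 to 1.88) with vehicle. All but the SR9009 value at 48 h met the size rule. SR9009 was below vehicle with bounds apart at 4 h (71.4% of vehicle) and 48 h (53.7%).

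Itga8 encodes α8, a receptor for nephronectin and other RGD-containing proteins. It had 10.7, 6.65 and 9.11 FPKM with SR9009, against 14.5, 11.0 and 7.52 FPKM with vehicle. SR9009 was below vehicle with bounds apart at 0 and 4 h, and at 48 h its value was above with overlapping bounds. Itga4 encodes α4, which binds VCAM-1 and an alternatively spliced stretch of fibronectin. It had 9.28, 4.21 and 5.60 FPKM with SR9009, against 9.36, 6.12 and 6.33 FPKM with vehicle, and the bounds of the arms were apart at 4 h. Neither gene met the size rule in any comparison, although Itga4 at 4 h with SR9009 came close with a difference from 0 h of -0.98.

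Subunits typical of leukocytes were low. Itgb2, the β2 subunit of leukocyte integrins, ranged from 1.21 to 2.20 FPKM with SR9009 and from 1.49 to 2.67 FPKM with vehicle. At 4 h it was at 50.6% of vehicle with SR9009, with bounds apart, and the macrophage markers summed to 8.80 FPKM with SR9009 and 22.5 FPKM with vehicle. At that time 4 of the 7 macrophage markers measured were lower with SR9009 by the size rule. The macrophage markers were also lower at the other times, where the Itgb2 bounds overlapped: at 0 h they summed to 8.98 FPKM with SR9009 and 23.9 FPKM with vehicle, with 3 of the 7 lower and Itgb2 at 82.4% of vehicle. At 48 h they summed to 7.53 FPKM with SR9009 and 15.1 FPKM with vehicle, with 2 of the 7 lower and Itgb2 at 102% of vehicle. Their part in the Itgb2 value was not tested. Itgad, which encodes the leukocyte subunit αD, ranged from 0.601 to 1.21 FPKM with SR9009 and from 0.579 to 1.00 FPKM with vehicle. Itgae, which encodes the αE subunit of intraepithelial lymphocytes, ranged from 1.17 to 1.82 FPKM with SR9009 and from 1.24 to 1.70 FPKM with vehicle, and the bounds of the arms overlapped at every time for Itgad and Itgae.

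Promoter bases are shown for 5 members. Itga5 and Lamb3 were higher after PE in vehicle cells at both times, Itgb8 peaked at 4 h, and the SR9009 difference of Itgb6 turned round at 48 h. Lama4 was taken for its match to AGGTCA, a half-site shared by many nuclear receptors. Bases flanking that half-site were not searched, so the match is not specific to REV-ERB. Each run is the 250 bases before the RefSeq start on the gene's own strand, from the rat build GRCr8, and capitals mark the motif matches described after them, of which Lamb3 has none. RefSeq promoter sequence was found for 14 of the 21 members.
Itga5 (chr7:136381306-136381555, minus strand): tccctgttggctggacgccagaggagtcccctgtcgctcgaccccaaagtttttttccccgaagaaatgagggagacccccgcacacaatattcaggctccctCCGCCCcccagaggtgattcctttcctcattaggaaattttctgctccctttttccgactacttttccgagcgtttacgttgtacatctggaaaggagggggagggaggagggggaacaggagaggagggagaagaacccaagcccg
Lamb3 (chr13:107362303-107362552, plus strand): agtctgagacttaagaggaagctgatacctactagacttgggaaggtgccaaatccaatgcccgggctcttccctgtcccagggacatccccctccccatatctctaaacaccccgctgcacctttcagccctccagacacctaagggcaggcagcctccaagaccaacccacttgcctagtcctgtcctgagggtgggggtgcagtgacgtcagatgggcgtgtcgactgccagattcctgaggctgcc
Itgb8 (chr6:146351246-146351495, minus strand): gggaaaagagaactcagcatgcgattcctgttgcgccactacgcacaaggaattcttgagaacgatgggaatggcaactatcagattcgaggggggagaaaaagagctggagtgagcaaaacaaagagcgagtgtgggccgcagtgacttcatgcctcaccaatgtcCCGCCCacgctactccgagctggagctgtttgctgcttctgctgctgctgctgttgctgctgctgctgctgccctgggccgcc
Itgb6 (chr3:65530334-65530583, minus strand): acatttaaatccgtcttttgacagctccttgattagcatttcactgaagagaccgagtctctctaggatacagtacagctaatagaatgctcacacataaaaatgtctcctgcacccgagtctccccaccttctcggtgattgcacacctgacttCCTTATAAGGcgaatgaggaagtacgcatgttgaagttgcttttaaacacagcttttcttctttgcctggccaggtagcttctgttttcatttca
Lama4 (chr20:43946648-43946897, plus strand): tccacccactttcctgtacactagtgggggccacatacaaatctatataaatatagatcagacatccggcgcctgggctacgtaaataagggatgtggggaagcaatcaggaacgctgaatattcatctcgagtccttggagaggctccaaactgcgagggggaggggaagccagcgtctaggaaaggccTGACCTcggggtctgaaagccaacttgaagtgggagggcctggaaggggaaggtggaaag

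The motifs searched on both strands were AGGTCA, the nuclear receptor half-site, TGANTCA, the AP-1 element, GGGCGG, the core of the GC box, and the CArG box, which serum response factor binds. AGGTCA was found in 1 of the 14 member promoters, that of Lama4 at 60 to 55 bases before the start on the opposite strand, and in 14.1% of all 33469 promoters. The CArG box was found in that of Itgb6, at 95 to 86 bases before the start, and in 1.5% of all promoters. It reads as a match on either strand. GGGCGG was found in 6 of the 14 (Itga11, Itga5, Itgb1, Itgb8, Lama5 and Lamc1) and in 30.5% of all promoters. It lies at 147 to 142 bases before the start in Itga5 and at 83 to 78 in Itgb8, on the opposite strand in both. TGANTCA was found in 0 of the 14 and in 6.34% of all promoters. The median GC content was 59.0% in member promoters and 51.2% in all. A match is a string of letters in this window and says nothing about binding.

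Lamb3 had the largest PE differences of the 21 members at 48 h. It encodes β3, a chain best known from the basement membrane under epithelium. Lamb3 (chr13:112031657-112073185) had 19.7, 29.3 and 89.2 FPKM with SR9009 at 0, 4 and 48 h, against 21.6, 49.0 and 105 FPKM with vehicle. The values increased with each time in both arms. At 48 h Lamb3 was at 452% of its 0 h level with SR9009, a difference of 2.12 (range 1.71 to 2.53), and at 486% with vehicle, a difference of 2.23 (range 1.81 to 2.64). The arms were apart at 4 h only, where SR9009 was at 59.8% of vehicle; there the difference from 0 h was 0.55 with SR9009 and 1.14 (range 0.73 to 1.56) with vehicle.

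Lamc1 encodes γ1, the γ chain of most laminins (chr13:70656727-70783515). It had 139, 213 and 223 FPKM with SR9009, against 145, 238 and 327 FPKM with vehicle. The difference between 48 h and 0 h was 0.68 (range 0.24 to 1.11) with SR9009 and 1.17 (range 0.73 to 1.61) with vehicle, and only the vehicle value met the size rule. The SR9009 value minus the vehicle value was -0.49, with a range that included 0 (-1.37 to 0.38). The arms were apart at 48 h, with SR9009 at 68.2% of vehicle.

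Lamb2 encodes β2, a chain found at neuromuscular junctions and in vessel walls (chr8:117268374-117280514). Lamb2 had 179, 170 and 219 FPKM with SR9009, against 242, 217 and 145 FPKM with vehicle. The SR9009 values lay below vehicle at 0 and 4 h with overlapping bounds and above it at 48 h with bounds apart, at 151% of vehicle. The PE difference at 48 h was 0.28 (range -0.15 to 0.71) with SR9009 and -0.74 (range -1.17 to -0.31) with vehicle, neither of which met the size rule. The SR9009 value exceeded the vehicle value by 1.02 (range 0.16 to 1.89), which met it.

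Within the β chains measured, Lamb3 made up 9.91, 14.7 and 29.0% of the summed FPKM with SR9009 at 0, 4 and 48 h, against 8.20, 18.4 and 42.1% with vehicle. The sum itself was 199, 200 and 308 FPKM with SR9009, against 264, 266 and 250 FPKM with vehicle. In vehicle cells the sum of these 2 chains, Lamb2 and Lamb3, was thus nearly level while its make-up moved to Lamb3. With SR9009 at 48 h both were above their 0 h values. No other β chain, such as Lamb1, is in the sum, so these shares do not describe all laminin β chains of the cells.

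**Figure D2:**
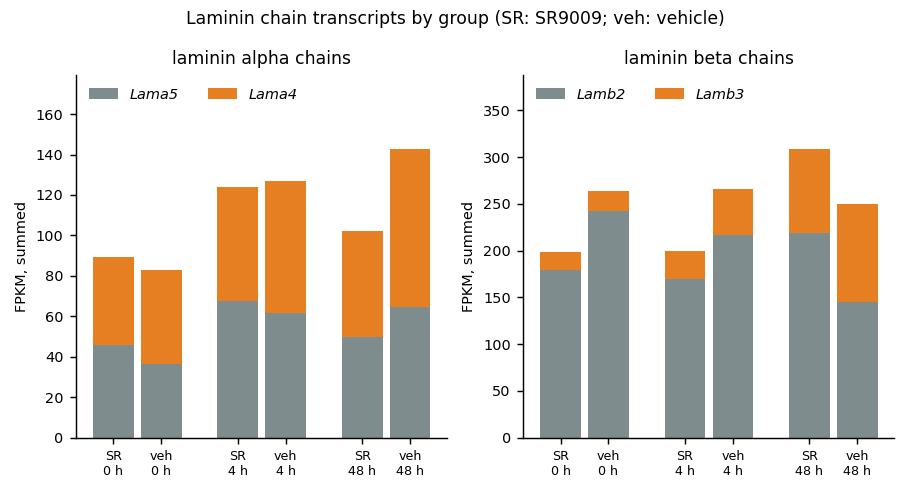
Summed FPKM of the measured α and β laminin chains in each group, stacked by gene, with SR9009 bars left of vehicle bars. The sums have no bounds of their own; Lamb3 takes 29.0% of the β sum with SR9009 at 48 h and 42.1% with vehicle.

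With vehicle at 48 h the α chain genes differed less from 0 h than Lamb3 and Lamc1 did. The difference was 0.82 (range 0.40 to 1.24) for Lama5 and 0.72 (range 0.30 to 1.14) for Lama4. With SR9009 it was 0.12 for Lama5 and 0.25 for Lama4, with ranges that included 0. Lama4 encodes α4, a chain of vascular and muscle basement membranes, and had 43.8, 56.2 and 52.5 FPKM with SR9009, against 46.8, 65.7 and 77.7 FPKM with vehicle. The arms were apart at 48 h, with SR9009 at 67.6% of vehicle. Lama5 encodes α5, a widely expressed basement membrane chain, and had 45.7, 67.7 and 49.7 FPKM with SR9009, against 36.3, 61.4 and 64.8 FPKM with vehicle. Its arms overlapped at all times, and neither gene met the size rule in any comparison.

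Read by comparison, PE for 4 h with SR9009 left 1 member higher (Itga5) and 1 lower (Itga11), beside 1.73% of all tested genes higher and 2.51% lower. In vehicle, 3 members were higher at 4 h (Itgb8, Itga5 and Lamb3) and 1 lower (Itga11), beside 2.62% of all tested genes higher and 2.23% lower. At 48 h, 2 of the 21 were higher with SR9009 and 0 lower, where 1.18% of all genes were higher and 1.09% lower. In vehicle 5 of the 21 were higher and 0 lower, where 4.66% of all genes were higher and 3.81% lower. Between 11099 and 11126 genes had a value in a comparison. The median member difference at 4 h was 0.11 with SR9009, with -0.07 over all genes, and 0.19 with vehicle, with -0.03 over all genes. At 48 h it was 0.12 with SR9009, with -0.04 over all genes, and 0.14 with vehicle, with -0.01 over all genes.

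The median of the 5 laminin chains lay above that of the 16 integrins in each of these. At 48 h it was 0.28 with SR9009 and 0.82 with vehicle, and that of the integrins was -0.12 with SR9009 and -0.04 with vehicle. Single genes did not keep that order. With vehicle at 48 h Lamb2 was at -0.74, and Itga5 (1.46), Itga6 (1.14) and Itga1 (1.03) lay above the laminin median. All of these values depend on the authors' scaling. With each group scaled to the same sum, the median of all genes moved by -0.11 at 4 h with SR9009, by -0.17 at 4 h with vehicle and by -0.20 at 48 h with vehicle, and the members' calls have to be read against that shift. The shares of all genes became 1.33% higher and 3.79% lower at 4 h with SR9009 and 1.81% higher and 3.78% lower at 4 h with vehicle. At 48 h they became 0.998% higher and 1.48% lower with SR9009, and 3.14% higher and 6.17% lower with vehicle. Under that scaling Lamb3 at 4 h in vehicle (0.95), Itga1 (0.82), Itga6 (0.92) and Lamc1 (0.95) at 48 h in vehicle Itga5 at 4 h with SR9009 (0.92) and Itga7 at 48 h with SR9009 (0.93) were under the limit. The 48 h counts under it are those given at the outset. The members' median came to -0.02 at 4 h with SR9009 and to -0.00 at 48 h with vehicle, with 10 members above 0 and 11 below in that comparison.

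**Figure D3:**
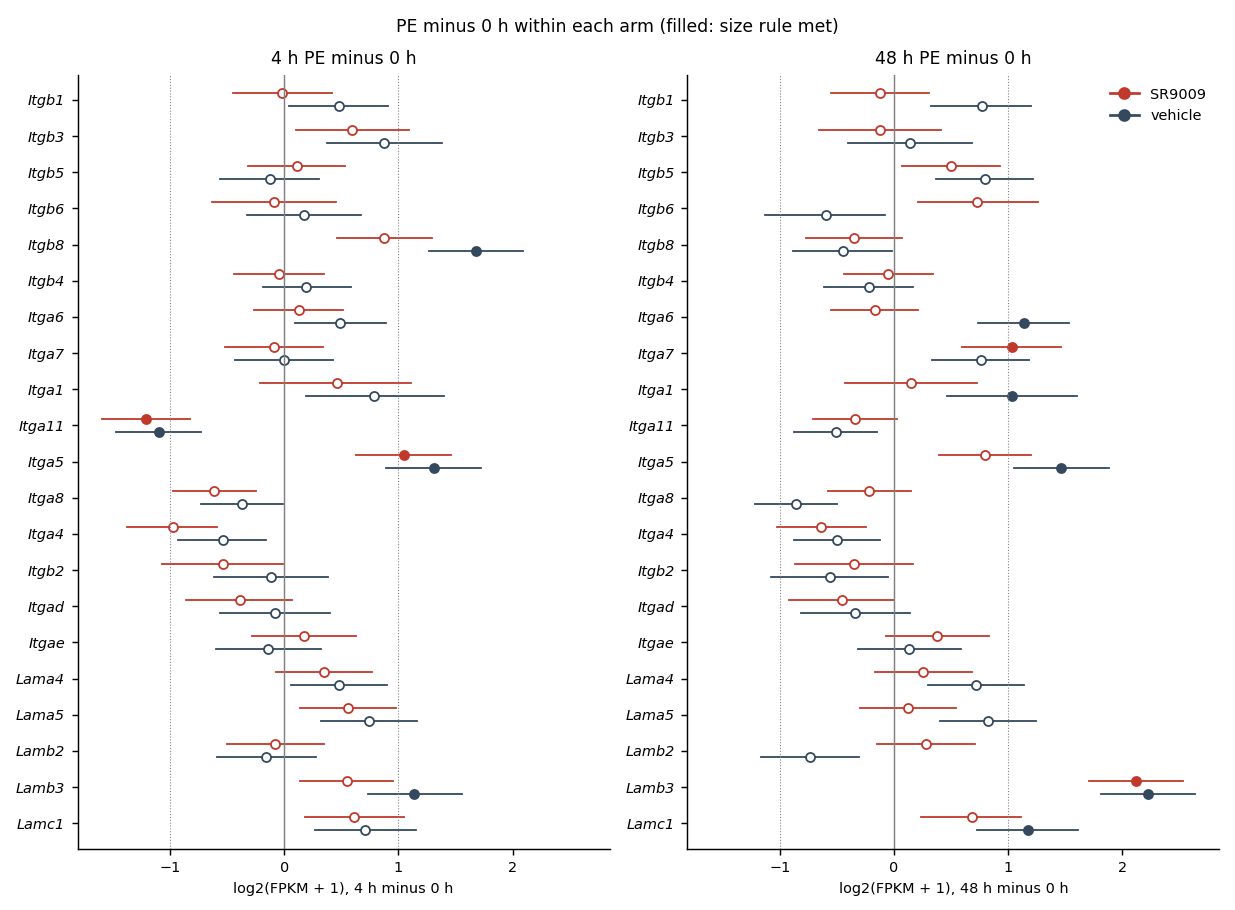
Difference of log2(FPKM + 1) between 4 h (left) or 48 h (right) of PE and 0 h for each member, red for SR9009 and dark for vehicle; lines are the ranges from the authors' bounds and filled points met the size rule. At 48 h Lamb3 lies at 2.12 with SR9009 and 2.23 with vehicle, while Itga6 lies at -0.17 with SR9009 and 1.14 with vehicle.

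SR9009 set against vehicle gave no member past the size rule at 0 h, where 0.467% of all genes were higher and 0.566% lower. The bounds were apart for 3 members, all with SR9009 below vehicle (Itga7, Itga8 and Itgb6), beside 5.83% of all genes with SR9009 below and 3.74% above. At 4 h again none met the rule, beside 0.468% of all genes higher and 1.01% lower, and 9 of the 21 had bounds apart, each with SR9009 below vehicle, beside 9.96% of all genes below and 3.87% above. Those 9 were Itga4, Itga5, Itga6, Itga7, Itga8, Itgb2, Itgb6, Itgb8 and Lamb3. Itga6 was barely apart, with a range of -0.81 to -0.00. The largest differences at 4 h were -0.84 for Itgb6 and -0.78 for Itga7.

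At 48 h, 1 member was lower by the size rule (Itga6) and none higher, beside 4.36% of all genes lower and 2.20% higher, which became 3.61% and 3.09% with equal sums. The bounds were apart for 9 members. SR9009 was below vehicle for 7 of them (Itga1, Itga5, Itga6, Itgb1, Itgb5, Lama4 and Lamc1) and above for Itgb6 and Lamb2, beside 16.6% of all genes below and 10.7% above. Itgb5 was barely apart, with a range of -0.85 to -0.00. Itga5 and Itga6 are in both the 4 h and the 48 h list with SR9009 below vehicle, and Itgb6 is in both with opposite directions. The median member difference was -0.09 at 0 h, -0.37 at 4 h and -0.15 at 48 h, with -0.02, -0.07 and -0.04 over all genes.

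**Figure D4:**
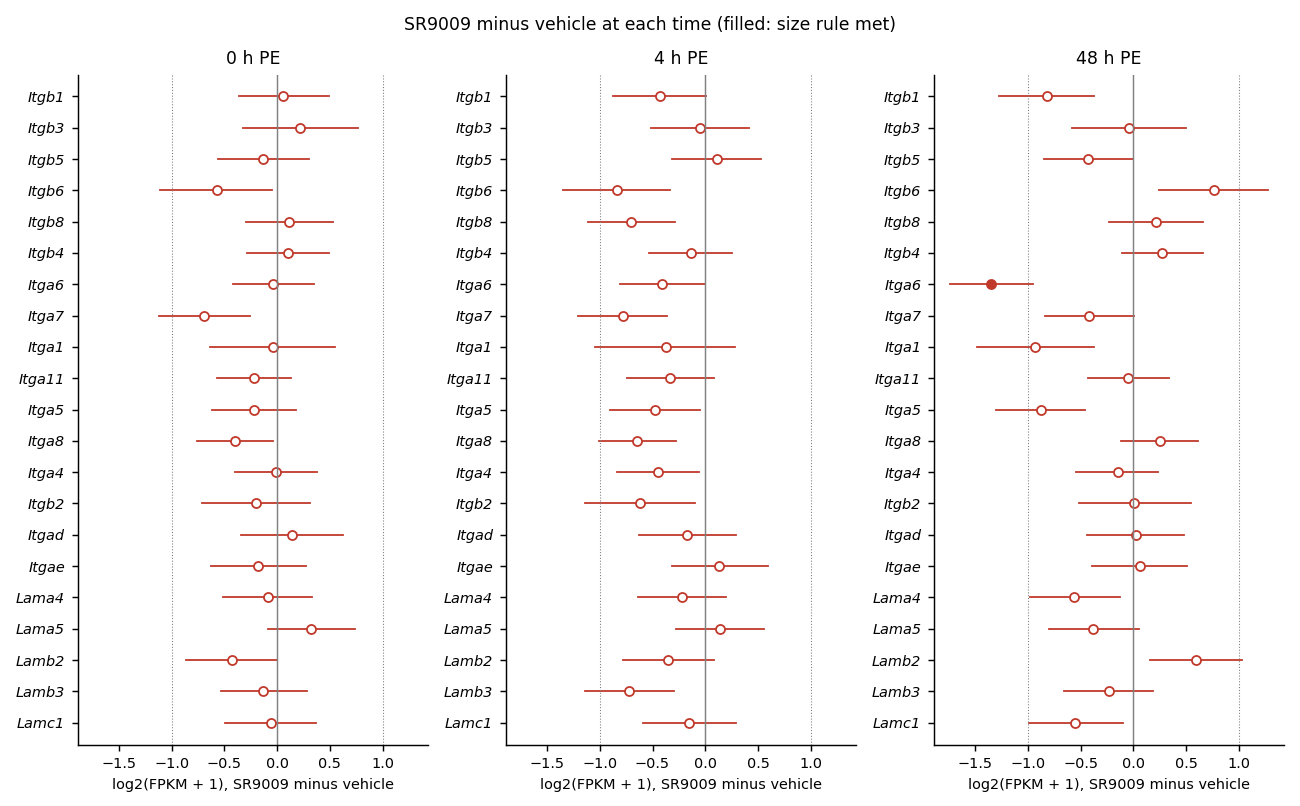
SR9009 minus vehicle difference of log2(FPKM + 1) for each member at 0, 4 and 48 h of PE, with the range from the authors' bounds; filled points met the size rule. At 4 h 18 of the 21 points lie below 0, and at 48 h Itga6 lies beyond -1 while Itgb6 and Lamb2 lie above 0 with ranges that exclude it.

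The PE difference with SR9009 minus the PE difference with vehicle met the size rule for no member at 4 h, where 0.0721% of all genes were higher and 0.324% lower. It was below 0 for 18 of the 21 members, with a median of -0.26 and -0.04 over all genes. At 48 h it met the rule for Itga6 (-1.31), Itgb6 (1.33) and Lamb2 (1.02), beside 3.52% of all genes higher and 5.05% lower, which became 4.66% and 4.04% with equal sums. In that double difference 5 of the 9 fibroblast markers and 4 of the 8 cardiomyocyte markers were also higher past the rule and none lower, and 3 of the 8 smooth muscle and pericyte markers were lower and 1 higher; their part in the member values was not tested. The median over the members was -0.12, with -0.02 over all genes. These double differences share their groups with the comparisons above and carry wider ranges.

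Summed over the 9 α subunits measured, the level was 162, 182 and 250 FPKM with SR9009 at 0, 4 and 48 h, against 216, 275 and 386 FPKM with vehicle. Itga7 made up 43.7, 36.4 and 58.2% of it with SR9009, against 53.0, 41.7 and 50.3% with vehicle, and Itga5 17.1, 31.9 and 19.6% with SR9009 at the same times. The β sum was 619, 629 and 604 FPKM with SR9009, against 602, 821 and 1010 FPKM with vehicle. The β sum with SR9009 was thus nearly level, following Itgb1. These sums hold only the subunits measured.

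Of 28 measured focal adhesion and integrin adaptor genes, 7 were higher at 48 h of PE in vehicle cells and none lower, beside 4.66% of all genes higher and 3.81% lower. The shares of all genes given above for each comparison are likewise the background of the other counts in the lists that follow. The largest were Ptk2b (1.78), a kinase related to focal adhesion kinase, Actn1 (1.66), the α-actinin of focal adhesions, Zyx (1.25), a LIM protein of mechanically loaded adhesions, and Tgfb1i1 (1.21), a paxillin relative. With SR9009 at 48 h, 2 were higher, Itgb1bp2 (1.85), the β1-binding protein melusin of muscle, and Lims2 (1.53), an adaptor of the integrin-linked kinase complex. Itgb1bp2 was thus higher by the rule in both arms. At 4 h, Lims2 was higher with SR9009 (1.68), and Lims2 (1.15) and Tgfb1i1 (1.11) were higher with vehicle.

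With SR9009 set against vehicle, 2 adaptors were lower at 0 h (Lims2 -2.23 and Itgb1bp2 -1.14) and so were both at 4 h (Lims2 -1.69 and Itgb1bp2 -1.15). At 48 h, 3 others were lower (Actn1 -2.23, Ptk2b -1.55 and Zyx -1.15) and none higher. Actn1 had 80.4, 100 and 58.4 FPKM with SR9009, against 86.8, 142 and 277 FPKM with vehicle. Its SR9009 value was thus lowest at 48 h, where the vehicle value was highest. In the PE differences at 48 h, SR9009 minus vehicle met the rule for Actn1 (-2.12), Lims2 (1.59), Ptk2b (-1.44) and Zyx (-1.25), and for none of the 28 at 4 h.

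Of 9 basement membrane partners of laminin, such as type IV collagen chains, 1 was higher (Col18a1, 1.16) and 1 lower (Col4a3, -2.24) at 4 h in vehicle, and Col4a3 (-2.28) and Col4a4 (-1.40) were lower at 4 h with SR9009. At 48 h none met the rule with SR9009, and Col4a3 (-1.43) and Col15a1 (-1.07) were lower with vehicle. Col4a3 had 12.3, 1.73 and 20.4 FPKM with SR9009, against 24.5, 4.39 and 8.50 FPKM with vehicle. It was lowest at 4 h in both arms. SR9009 was below vehicle for Col4a4 at 4 h (-1.42) and above it for Col4a3 at 48 h (1.17), with none past the rule at 0 h. The double difference met the rule at 48 h for Col4a3 (2.12) and Col4a4 (1.18) and for none at 4 h.

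Of 18 other laminin receptors and members of the dystroglycan complex, Sntb1, a syntrophin of that complex, was higher with vehicle at 4 h (1.14) and 48 h (1.17). With SR9009 1 gene was lower at 4 h (Sspn, -1.05) and none met the rule at 48 h. SR9009 against vehicle met it for Sntb1 at 48 h (-1.13) and for none at 0 or 4 h. The double difference met it at 48 h for Bcam (1.72), a laminin receptor of the immunoglobulin family, the sarcoglycan gene Sgca (1.21), the sarcospan gene Sspn (1.09) and Sntb1 (-1.13), and for none at 4 h. Bcam had 109, 95.6 and 214 FPKM with SR9009, against 191, 174 and 113 FPKM with vehicle, so that it lay below vehicle at 0 and 4 h and above it at 48 h, the arrangement that Lamb2 also had.

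Of 18 measured integrin ligands other than laminin and collagen, 5 were lower with SR9009 than with vehicle at 48 h and none higher, beside 4.36% of all genes lower and 2.20% higher. The largest were Ctgf (-2.49), Thbs1 (-1.77), Cyr61 (-1.56) and Mfge8 (-1.10), which encode matricellular proteins and, for Mfge8, a ligand of αv integrins. At 4 h, 4 were lower (Thbs1 -1.35, Ctgf -1.30, Nov -1.18 and Vcam1 -1.0) and Spp1, which encodes osteopontin, was higher (2.09). At 0 h Spp1 alone met the rule (1.30). Spp1 had 121, 162 and 33.5 FPKM with SR9009, against 48.7, 37.3 and 55.2 FPKM with vehicle, and so was above vehicle at 0 and 4 h and below it at 48 h.

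After PE, 4 ligands were lower at 4 h with SR9009 (Nov -1.84, Postn -1.78, Fbln5 -1.49 and Fn1 -1.26) and none higher. With vehicle at 4 h, Ctgf was higher (1.22) and 3 were lower (Nov -1.37, Fbln5 -1.30 and Postn -1.11). At 48 h, Spp1 (-1.83) and Nov (-1.42) were lower with SR9009, while with vehicle Ctgf (1.70) and Mfge8 (1.48) were higher and Nov (-1.74) and Thbs2 (-1.24) lower. The double difference was below 0 past the rule for Thbs1 (-1.17) and Ctgf (-1.13) at 4 h, and for 5 at 48 h, led by Ctgf (-2.31), Spp1 (-2.0), Thbs1 (-1.59) and Cyr61 (-1.42). Fn1, whose product fibronectin is the ligand of the receptor that holds Itga5, had 238, 98.9 and 149 FPKM with SR9009, against 203, 113 and 172 FPKM with vehicle. Fn1 was thus lowest at 4 h in both arms, where Itga5 was above its 0 h level.

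Markers of other cells moved with the same comparisons. Smooth muscle and pericyte markers summed to 896 FPKM with SR9009 and 2057 FPKM with vehicle at 48 h. Of the 8, 3 (Cnn1, Acta2 and Cspg4) were lower with SR9009 by the size rule. The list did not move together. At 48 h, 2 of the 8 lay above vehicle: Myh11 with 14.6 against 11.6 FPKM and Smtn with 24.0 against 14.5 FPKM. Fibroblast markers summed to 1084 FPKM with SR9009 and 1087 FPKM with vehicle at 48 h, and 2 of the 9 measured (Lum and Dcn) were higher with SR9009. The near-equal sums hide opposite directions. With SR9009, 7 of the 9 lay above vehicle and 2 below, 1 of them Col1a1 with 509 against 701 FPKM, and the median difference was 0.55. In vehicle cells 6 of those 9 were lower at 48 h than at 0 h, and 4 of the 8 smooth muscle and pericyte markers were higher. Another 3 of the 8 (Myh11, Smtn and Pdgfrb) lay below their 0 h values without meeting the rule. The cardiomyocyte markers summed to 10880, 18138 and 22506 FPKM with SR9009 at 0, 4 and 48 h, against 15518, 22449 and 23260 FPKM with vehicle. Myh6 is not in these sums, because it had no estimate in some groups. With vehicle at 48 h, 5 of the 8 lay above their 0 h values and 3 (Tnni3, Pln and Ryr2) below. With SR9009 all 8 lay above. The part of these markers in the integrin and laminin differences was not tested.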

How the data were processed

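Total RNA went into 18 libraries made with a kit for stranded mRNA according to the labels, and the numbers 0, 1 and 2 in the labels number the replicates of each group. The submitters' processing notes name FastQC, Trim Galore, TopHat and Cuffdiff and the build rn6, without versions. The deposited table gives 1 FPKM per gene and group with the authors' lower and upper bounds. The sources used here give neither the confidence level of these bounds nor the scaling between groups or the depth of each library. Starts in the table were read as counted from 0 and are printed 1 higher: read so, 2074 genes had the length of their RefSeq locus, against 277 otherwise.

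Differences were taken between log2(FPKM + 1) values with Python 3.11.15, numpy 2.4.6 and pandas 2.3.3, and figures were drawn with matplotlib 3.10.9. The 11257 genes that averaged 0.5 FPKM or more entered, without values at 0, values with no estimate and the 172 values outside their own bounds. The procedure was tested on simulated data. No p-value was computed, because values per library were not used here. The tried alternatives were another pseudocount, other filters, other limits and 3 scalings.

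The integrin and laminin genes and the pathway and marker lists were chosen with earlier results of these data known. A gene that the symbol rule takes is not reported here. Members that reached 5 FPKM in a group or met the size rule are named with all their values, and the others with ranges. Of each pathway list, up to 4 genes per comparison are named, largest first, except that all 7 adaptors higher at 48 h in vehicle are named.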

Additional observations from a re-analysis of the deposited data

Results flagged for a closer look

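For 3 members the 48 h PE difference with SR9009 departed from that with vehicle by at least 1 on the log2(FPKM + 1) scale, with a range from the authors' bounds that excluded 0. Of all tested genes, 3.52% were higher and 5.05% lower by the same rule, so such departures are not particular to these members. Itga6 had a PE difference of -0.17 with SR9009 and 1.14 with vehicle, and the SR9009 value minus the vehicle value was -1.31 (range -2.08 to -0.53). For Itgb6 the PE differences were 0.73 with SR9009 and -0.60 with vehicle, 1.33 apart (range 0.29 to 2.39), at levels between 1.55 and 3.56 FPKM. For Lamb2 they were 0.28 with SR9009 and -0.74 with vehicle, 1.02 apart (range 0.16 to 1.89). With 1 value per group these differences were not tested.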

How the results depend on the processing

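The counts of members past the size rule stayed within 1.5 times of the reported count in 60 of the 72 recomputed counts. With a limit of 1.5-fold, SR9009 against vehicle gave 1 member at 0 h, 6 at 4 h and 6 at 48 h, beside 4.55, 6.84 and 17.6% of all genes past it in either direction; 1 of 21 is near that share at 0 h. PE with SR9009 then gave 7 at 4 h and 6 at 48 h, beside 15.7 and 9.41% of all genes, and PE with vehicle 8 at 4 h and 13 at 48 h, beside 16.2 and 21.0%. A pseudocount of 0.1 gave 1 member for SR9009 against vehicle at 4 h (Itgb6), beside 2.50% of all genes past it in either direction. At 48 h it gave 2 (Itga6 and Itgb6), beside 8.84%, and 2 of 21 is near that share. Quantile normalization left 1 at 4 h of PE with SR9009 (Itga5), beside 1.93% of all genes higher and 1.87% lower. Equal sums left 3 members at 48 h of PE with vehicle and 1 with SR9009 (Lamb3), brought Itga8 past the limit at 48 h in vehicle (-1.06) and Itga4 at 4 h with SR9009 (-1.10), and gave a median member difference of -0.02 at 4 h with SR9009, in place of 0.11. Quantile normalization took Lamc1 at 48 h in vehicle to 0.99 and Itgb3 at 4 h in vehicle to 1.05. No called difference changed sign under any alternative run. No paired analysis was possible because the table holds 1 value per group; for the same reason no replicate could be left out. Depth per library is not given, so no counting error could be set beside these values, and the widest bounds, up to 43.3% from the value, belong to members under 5 FPKM, though the spans of lower and higher members overlap. The authors' bounds are not a spread between libraries of known level.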
